A study of Mus musculus with 12 samples.

Results

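Proteasome genes of male mouse germ cells were followed in 4 groups of 3 arrays each. They were taken as every gene symbol made of Psm, a letter between a and g and a number, leaving out Psmb8 and Psmb9, on probe sets that carry a single symbol. The rule used names only and no measured value, but the set was chosen with earlier results of these data known. It gave 47 symbols on 100 of the 45101 probe sets of the array, and each symbol was read from its brightest probe set over all 12 arrays. Of these symbols, 45 encode subunits, activators, an inhibitor or assembly factors of the proteasome. The other two, Psmc3ip, a meiotic recombination factor, and Psme3ip1, a protein that binds Psme3, only share the letters and are given apart. A gene was tested if its signal lay above the median of the whole table, 92.03 intensity units, on at least 3 arrays. That held for 44 of the 45 proteasome genes, among 14197 genes tested in all. The exception was Psmb11, the thymus form of a beta subunit, which lay between 7.783 and 63.59 units on all arrays. Psme2 is read only by a probe set that also carries Psme2b, so it is not among the 47.

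The study set germ cells made in culture beside germ cells from the animal at 2 stages. Spermatid-like cells (SLC) came from in vitro differentiation, and round spermatids (RS), the haploid cells that follow meiosis, came from BDF1 mouse testis at 3 weeks. Primordial germ cell-like cells (PGCLC) were taken at day 6 of in vitro differentiation, and primordial germ cells (PGC), the embryonic founders of the germ line, came from BDF1 male genital ridge at E12.5. Cells were collected by FACS, with no gate named, and total RNA was hybridised to Affymetrix 3' expression arrays. The labels call the 3 arrays of a group biological replicates but do not say whether they came from separate animals or cultures, so the p values measure only the spread between these arrays. The line and the culture protocol behind the PGCLC and SLC are not given in the sources used here.

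The proteasome breaks down proteins that carry ubiquitin chains. Its 20S core is a barrel of outer alpha rings, which gate the entry, and inner beta rings, where Psmb5, Psmb6 and Psmb7 hold the protease sites. The 19S cap binds ubiquitin, removes it and unfolds the substrate with a ring of ATPases, and other activators can take the place of the cap. In the mouse testis a core with Psma8, a germ cell form of the alpha subunit Psma7, and the activator Psme4 (PA200) are known from meiotic and postmeiotic cells, where they serve meiosis and the removal of histones.

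Promoters are shown for the genes at both ends of the stage change described below. The sequences are the 150 bases before the annotated start of the genes with the largest falls, Psme1 and Psma7, and the largest rises, Psmf1 and Psme3, in round spermatids against PGC. This ranking reads each gene from its brightest probe set, and the other probe sets of Psmf1 and Psme3 over the filter lay below 0. The sequences come from RefSeq on the mouse build GRCm38.p6 and read 5' to 3' on the strand of the gene. Capitals mark a match to any of 4 motifs, each searched on both strands.
Psma7 (chr2:180042465-180042614, minus strand): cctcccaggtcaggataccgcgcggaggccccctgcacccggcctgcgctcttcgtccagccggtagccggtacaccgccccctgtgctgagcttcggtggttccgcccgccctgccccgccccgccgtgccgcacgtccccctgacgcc
Psme1 (chr14:55578344-55578493, plus strand): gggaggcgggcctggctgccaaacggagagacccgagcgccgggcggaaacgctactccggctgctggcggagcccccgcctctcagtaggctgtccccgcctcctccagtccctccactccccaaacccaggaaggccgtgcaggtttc
Psmf1 (chr2:151741311-151741460, minus strand): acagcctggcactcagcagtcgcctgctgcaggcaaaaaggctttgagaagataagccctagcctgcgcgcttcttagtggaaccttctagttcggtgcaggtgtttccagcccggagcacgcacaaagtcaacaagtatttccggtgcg
Psme3 (chr11:101316063-101316212, plus strand): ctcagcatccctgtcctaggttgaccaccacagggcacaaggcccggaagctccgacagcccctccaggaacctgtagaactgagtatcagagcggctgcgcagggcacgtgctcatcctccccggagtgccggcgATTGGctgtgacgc
The motifs were the core of the antioxidant response element, TGACNNNGC, through which Nfe2l1 and Nfe2l2 raise proteasome genes in mammalian cells, the cAMP response element, TGACGTCA, the gamma-activated site, TTCNNNGAA, and the CCAAT box, CCAAT. The last 3 motifs and the 4 windows were chosen after the values were seen. The single match in these windows was a CCAAT box of Psme3 on the opposite strand.

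Of the 45 genes, 37 had a promoter in the reference table, which runs from 250 bases before the start to 50 after it. The antioxidant response element core occurred in 6 of them (16.2%), against 14% of 27025 promoters in all. These matches are shown with 15 bases on each side where the table reaches that far, and capitals mark the match.
Psmb5 (chr14:54618019-54618057, minus strand): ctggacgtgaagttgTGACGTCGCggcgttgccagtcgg
Psmb6 (chr11:70525333-70525371, plus strand): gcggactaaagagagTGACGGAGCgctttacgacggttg
Psmc6 (chr14:45329582-45329620, plus strand): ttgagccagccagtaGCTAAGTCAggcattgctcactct
Psmd9 (chr5:123228144-123228182, plus strand): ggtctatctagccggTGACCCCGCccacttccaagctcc
Psmd12 (chr11:107479278-107479304, plus strand): tctGCTGTGTCAcatttgcccccctca
Psme4 (chr11:30771753-30771791, plus strand): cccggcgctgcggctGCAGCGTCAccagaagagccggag
They lay at bases -47 to -39 from the start in Psmb5, -9 to -1 in Psmb6, -227 to -219 in Psmc6, -31 to -23 in Psmd9, -247 to -239 in Psmd12 and across the start in Psme4. The cAMP response element occurred in 0 of the 37 promoters, against 2.03% of all. The gamma-activated site occurred in 2 of the 37 (5.41%, against 9.55% of all), in Psmd2 and Psmg1. The CCAAT box occurred in 13 of the 37 (35.1%, against 41.1% of all). A match describes the letters only.

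The arrays had been scaled by the authors to a trimmed mean of 500 units each, and their medians lay between 73.2 and 107 units. Labels were checked against markers. All 9 spermatid markers were called higher in RS than in PGC and in SLC than in PGCLC. Of the 7 PGC markers, 6 were called lower in RS than in PGC and in SLC than in PGCLC. The exception was Ddx4, at 11050 to 11880 units in RS, 7098 to 8154 in SLC and 7054 to 7709 in PGC, so it does not set PGC apart. The PGCLC arrays differed among themselves. Ddx4, a germ cell RNA helicase, had 485.6, 6507 and 3237 units on PGCLC arrays 1, 2 and 3, against 7054 to 7709 units on the PGC arrays. PGCLC array 2 correlated with each PGC array at 0.994 to 0.995 over the proteasome genes and with the other PGCLC arrays at 0.944 and 0.978. The median SD of a proteasome gene over the 3 arrays of a group was 0.072 in SLC, 0.093 in RS, 0.222 in PGCLC and 0.06 in PGC on the log2 scale. The fit estimates 1 spread per gene from all 4 groups, so the PGCLC spread enters every SE below.

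Most proteasome genes were lower in round spermatids than in PGC, and a few went the other way. Signals are linear intensities, and differences are given on the log2 scale with their SE. The median signal of the proteasome genes on an array was 10.96 to 11.16 in RS on that scale, against 12.53 to 12.56 in PGC. In round spermatids against PGC, 26 of the 44 genes fell and 5 rose, where a call needs an adjusted p under 0.05 and a change of at least 2-fold in limma. These are 59.1% and 11.4% of the genes, and over all genes 37.2% were called lower and 31.5% higher. Without the fold limit 32 were lower and 9 higher, against 44.8% and 37.0% of all genes. Their median difference was -1.41, against -0.22 for all genes tested. All 3 RS arrays lay below all 3 PGC arrays in 34 of the 44 genes (77.3%), against 46.4% of all genes, and above them in 9 (20.5%), against 38.8%. Centring each array on its median gave -0.96, against 0.23 for all genes, with 8 higher and 22 lower. Centring shifts all genes of an array alike, so it cannot change the gap between the proteasome genes and all genes. Quantile normalization, which can change it, gave -1.44, against -0.05, so the median stayed below that of all genes. Fewer cells of a type and less RNA per cell cannot be told apart in such bulk samples. The log2 ratio of the 3' to the 5' control probe set of Gapdh was -0.01 to 0.20 in RS, against -0.43 to -0.36 in PGC, and that of Actb was 0.46 to 0.49 in RS, against 0.47 to 0.70 in PGC. Markers of other cells differed as well. Fetal gonad somatic markers summed to 725.4 to 854.9 units in RS, against 3789 to 4698 in PGC, with 6 of 8 called lower. Endothelial and blood markers summed to 390.8 to 534 units in RS, against 13720 to 14730 in PGC, with 5 of 6 called lower and 1 higher. Testis somatic markers, which share Gata4 and Wt1 with the fetal gonad list, summed to 2706 to 3109 units in RS, against 4669 to 5125 in PGC, with 4 of 12 called lower and 2 higher. Macrophage markers summed to 581.2 to 686.4 units in RS, against 227.3 to 253 in PGC, with 3 of 4 called higher. Immediate early and stress genes summed to 4072 to 4467 units in RS, against 7215 to 8627 in PGC, with 5 of 8 called lower and 1 higher. Meiotic spermatocyte markers summed to 11460 to 12250 units in RS, against 5309 to 6047 in PGC, with 4 of 7 called higher and 0 lower. The part of these markers and ratios in the result was not tested.

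**Figure D1:**
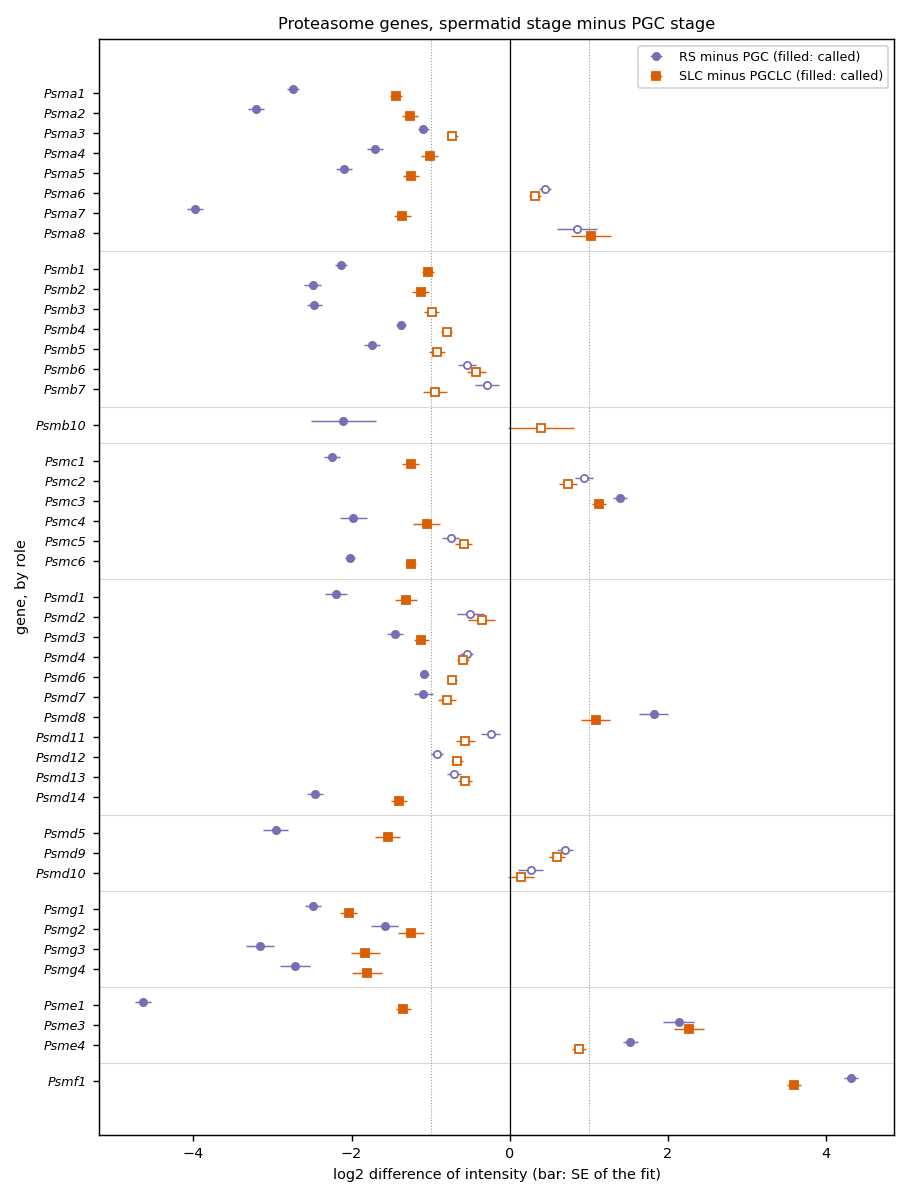
Log2 difference of each of the 44 proteasome genes (rows, grouped by role, SE of the fit as bars) in round spermatids minus PGC (circles) and in spermatid-like cells minus PGCLC (squares). Filled symbols passed the test with a change of at least 2-fold (dotted lines). Each gene is read from its brightest probe set, with the authors' scaling. Most genes lie left of 0 in both comparisons and farther left in vivo, while Psmf1, Psme3, Psmc3 and Psmd8 lie right of 1 in both.

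In the alpha ring 6 of 8 genes (75%) fell in RS against PGC and none rose, against 37.2% and 31.5% of all genes. Psma7, the somatic alpha subunit that Psma8 can replace, was at 2004, 2159 and 2257 intensity units on the SLC arrays, 353.7, 436 and 337 on the RS arrays, 5580, 5471 and 5368 on the PGCLC arrays and 5492, 6347 and 5816 on the PGC arrays. Its RS arrays were the lowest and did not overlap with any other group, and the difference from PGC was -3.98 ± 0.10 (SE, adjusted p = 5.6e-12). Psma2, another ring subunit, was at 3406, 3383 and 3261 intensity units on the SLC arrays, 991.6, 1067 and 1296 on the RS arrays, 7357, 8917 and 7851 on the PGCLC arrays and 10430, 9713 and 10560 on the PGC arrays. The RS arrays were again lowest, and the difference was -3.20 ± 0.10. Psma1 was at 2529, 2495 and 2478 intensity units on the SLC arrays, 1167, 1179 and 1368 on the RS arrays, 7090, 6736 and 6468 on the PGCLC arrays and 8091, 8708 and 8000 on the PGC arrays. Its 4 groups did not overlap, with RS lowest and PGC highest, and the difference was -2.74 ± 0.08. Psma3, Psma4 and Psma5 fell too, with differences of -1.09, -1.70 and -2.10.

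Psma8, the germ cell form, was at 1151, 1178 and 1118 intensity units on the SLC arrays, 2170, 2070 and 1846 on the RS arrays, 335.5, 856.7 and 622.1 on the PGCLC arrays and 1108, 1194 and 1062 on the PGC arrays. All RS arrays lay above all PGC arrays, but the difference of 0.85 ± 0.25 (SE, adjusted p = 0.0081) was under 2-fold and not a call. Psma6 likewise differed by 0.45 ± 0.07 with all RS arrays above. Psma8 thus had its highest arrays in RS, whereas Psma7 had its highest in PGCLC and PGC, which overlapped.

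In the beta ring 5 of 7 genes (71.4%) fell and none rose, against 37.2% and 31.5% of all genes. Psmb2 was at 2080, 2296 and 2409 intensity units on the SLC arrays, 1240, 1311 and 1227 on the RS arrays, 4147, 5856 and 4913 on the PGCLC arrays and 7262, 7011 and 6975 on the PGC arrays. Its 4 groups did not overlap, PGC being highest, and the difference was -2.49 ± 0.11 (SE, adjusted p = 6.7e-10). Psmb3 was at 1980, 2407 and 2156 intensity units on the SLC arrays, 789.2, 814.1 and 834.4 on the RS arrays, 4726, 3895 and 4327 on the PGCLC arrays and 4741, 4536 and 4261 on the PGC arrays. RS was lowest, PGCLC and PGC overlapped, and the difference was -2.47 ± 0.10. Psmb1, Psmb4 and Psmb5, the last with the chymotrypsin-like site, also fell, at -2.14, -1.37 and -1.74. The other two protease subunits did not reach 2-fold, with -0.54 ± 0.12 for Psmb6 and -0.29 ± 0.15 (SE, adjusted p = 0.096) for Psmb7. Psmb7 was at 2626, 1861 and 1806 intensity units on the SLC arrays, 3841, 4082 and 4046 on the RS arrays, 4223, 4012 and 3668 on the PGCLC arrays and 5853, 4828 and 4094 on the PGC arrays. Its SLC arrays were the lowest of all groups.

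Psmb10, the interferon-inducible form that replaces Psmb7 in the immunoproteasome, was at 456.9, 513.5 and 460.6 intensity units on the SLC arrays, 84.47, 33.41 and 141.7 on the RS arrays, 421.4, 255.1 and 438.6 on the PGCLC arrays and 283.6, 327.4 and 341.2 on the PGC arrays. The RS arrays were lowest and spread over the filter level of 92.03 units, the other groups lay between 255.1 and 513.5 units, and the difference was -2.10 ± 0.41 (SE, adjusted p = 0.00051). No detection calls were used, so it cannot be said whether its RS signal exceeds background.

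The ATPase ring of the cap was split. Psmc1, Psmc4 and Psmc6 fell in RS, Psmc3 rose, and Psmc2 and Psmc5 passed the test below 2-fold in opposite directions. Psmc1 was at 1506, 1655 and 1622 intensity units on the SLC arrays, 1085, 1139 and 1152 on the RS arrays, 3212, 4398 and 3870 on the PGCLC arrays and 5136, 5375 and 5475 on the PGC arrays. All groups were apart, and the difference was -2.24 ± 0.10 (SE, adjusted p = 1.0e-09). Psmc4 was at 3224, 3769 and 3885 intensity units on the SLC arrays, 2483, 2318 and 2156 on the RS arrays, 5758, 10200 and 7088 on the PGCLC arrays and 10010, 9350 and 8136 on the PGC arrays. PGCLC array 2 lay above the PGC arrays and the other PGCLC arrays below them, and RS was lowest, with a difference of -1.98 ± 0.17. Psmc3 was at 10840, 11010 and 11460 intensity units on the SLC arrays, 15990, 16280 and 15640 on the RS arrays, 4471, 6001 and 4850 on the PGCLC arrays and 5998, 6027 and 6142 on the PGC arrays. It had its highest arrays in RS and the next in SLC, and the difference was 1.40 ± 0.09 (SE, adjusted p = 1.8e-08). Psmc2 had a difference of 0.94 ± 0.11 in the same direction. Psmc5 was at 2293, 2509 and 2434 intensity units on the SLC arrays, 2910, 3283 and 3090 on the RS arrays, 3137, 4366 and 3418 on the PGCLC arrays and 5013, 5221 and 5332 on the PGC arrays. Its SLC arrays were the lowest, and RS differed from PGC by -0.75 ± 0.11.

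Among the 11 other cap subunits, 5 fell (45.5%), a share near the 37.2% of all genes, and 1 rose (9.09%), against 31.5% of all genes. Psmd14, the cap enzyme that removes ubiquitin chains, was at 2810, 3011 and 3076 intensity units on the SLC arrays, 1647, 1533 and 1658 on the RS arrays, 6717, 9217 and 7708 on the PGCLC arrays and 8636, 8653 and 9275 on the PGC arrays. RS was lowest without overlap, and the difference was -2.46 ± 0.10 (SE, adjusted p = 3.4e-10). Psmd8 was the riser, at 9606, 9252 and 9207 intensity units on the SLC arrays, 11560, 12100 and 11980 on the RS arrays, 5871, 3012 and 4779 on the PGCLC arrays and 3615, 2994 and 3507 on the PGC arrays. Its RS and SLC arrays lay above every PGCLC and PGC array, PGCLC array 2 lay with PGC, and the difference was 1.82 ± 0.18 (SE, adjusted p = 1.5e-06). Psmd2, a scaffold of the cap, was at 5788, 5482 and 5799 intensity units on the SLC arrays, 7267, 8002 and 8288 on the RS arrays, 5368, 10090 and 7099 on the PGCLC arrays and 11550, 10190 and 11600 on the PGC arrays. RS lay below PGC and above SLC, and the difference from PGC was -0.50 ± 0.17. Psmd1, Psmd3, Psmd6 and Psmd7 fell too, at -2.20, -1.45, -1.08 and -1.09. Psmd4, the ubiquitin receptor, differed by -0.54 ± 0.08, and Psmd11, Psmd12 and Psmd13 lay between -0.92 and -0.24.

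All 4 chaperones that build the core's alpha ring, Psmg1 to Psmg4, fell in RS against PGC, where 37.2% of all genes were called lower. Psmg3 was at 183.2, 257.2 and 275.1 intensity units on the SLC arrays, 106.6, 85.1 and 113 on the RS arrays, 937.1, 817.2 and 753 on the PGCLC arrays and 940.2, 838 and 920.9 on the PGC arrays. RS was lowest and close to the filter level, and the difference was -3.16 ± 0.18 (SE, adjusted p = 7.0e-09). Psmg1 was at 976.6, 1046 and 1006 intensity units on the SLC arrays, 1043, 976.9 and 1087 on the RS arrays, 3652, 4935 and 3928 on the PGCLC arrays and 6002, 5703 and 5692 on the PGC arrays. SLC and RS overlapped far below the PGCLC and PGC arrays, and the difference of RS from PGC was -2.49 ± 0.10. Psmg4 was at 363.8, 348.1 and 300.2 intensity units on the SLC arrays, 161.6, 282.6 and 239.3 on the RS arrays, 1210, 1320 and 1021 on the PGCLC arrays and 1604, 1399 and 1371 on the PGC arrays. RS was lowest, and the difference was -2.71 ± 0.19. Psmg2 was at 2732, 2322 and 1983 intensity units on the SLC arrays, 2977, 2985 and 3114 on the RS arrays, 4275, 7430 and 5315 on the PGCLC arrays and 8992, 9137 and 9028 on the PGC arrays. SLC and RS were low without overlap between them, PGCLC array 2 lay nearest to PGC, and the difference was -1.58 ± 0.17.

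Of the 3 chaperones of the cap, 1 fell (33.3%), near the 37.2% of all genes, and none rose, against 31.5% of all genes. Psmd5 was at 841.2, 807.4 and 735.1 intensity units on the SLC arrays, 506.1, 481.8 and 384.7 on the RS arrays, 1931, 3005 and 2114 on the PGCLC arrays and 3512, 3455 and 3649 on the PGC arrays. RS was lowest, and the difference was -2.96 ± 0.16 (SE, adjusted p = 3.8e-09). Psmd10 (gankyrin), the X-linked gene of the set, was at 859.8, 960.5 and 984.3 intensity units on the SLC arrays, 834.5, 1151 and 1090 on the RS arrays, 1052, 683.4 and 836.8 on the PGCLC arrays and 848.7, 865.6 and 819.7 on the PGC arrays. Every pair of groups overlapped, and RS differed from PGC by 0.27 ± 0.16 (SE, adjusted p = 0.15). Psmd9 differed by 0.70 ± 0.10, with all RS arrays above all PGC arrays.

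Activators moved in both directions. Psme1, a subunit of the interferon-inducible PA28 ring, was at 1461, 1664 and 1530 intensity units on the SLC arrays, 166.6, 203.7 and 204.4 on the RS arrays, 3785, 4101 and 3918 on the PGCLC arrays and 4656, 4820 and 4787 on the PGC arrays. RS was far below every other array. The difference of -4.64 ± 0.10 (SE, adjusted p = 9.6e-13) was the largest fall among the 44 genes, each read from its brightest probe set. Psme3, the nuclear PA28 form, was at 3370, 3765 and 4100 intensity units on the SLC arrays, 5663, 6473 and 6448 on the RS arrays, 619, 1139 and 657.7 on the PGCLC arrays and 1402, 1300 and 1523 on the PGC arrays. RS was highest, SLC next and PGCLC lowest, without overlap, and the difference from PGC was 2.14 ± 0.19 (SE, adjusted p = 4.9e-07). The second probe set of Psme3 over the filter went the other way, at -1.54. Psme4 was at 12160, 11660 and 10540 intensity units on the SLC arrays, 16040, 14860 and 15010 on the RS arrays, 7196, 5387 and 6238 on the PGCLC arrays and 5349, 5301 and 5295 on the PGC arrays. RS was highest and SLC next, and RS differed from PGC by 1.52 ± 0.09 (SE, adjusted p = 1.3e-08). Psmf1 (PI31), known as an inhibitor of the core in vitro and as a factor in its transport, was at 9018, 8762 and 8298 intensity units on the SLC arrays, 14100, 14420 and 13600 on the RS arrays, 772.3, 647.9 and 741.5 on the PGCLC arrays and 763.9, 630.2 and 722.6 on the PGC arrays. RS and SLC lay between 8298 and 14420 units, while PGCLC and PGC overlapped between 630.2 and 772.3. The difference of 4.32 ± 0.09 (SE, adjusted p = 1.0e-12) was the largest rise among the 44 genes. The other probe sets of Psmf1 did not rise, at -1.21 to -0.17.

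**Figure D2:**
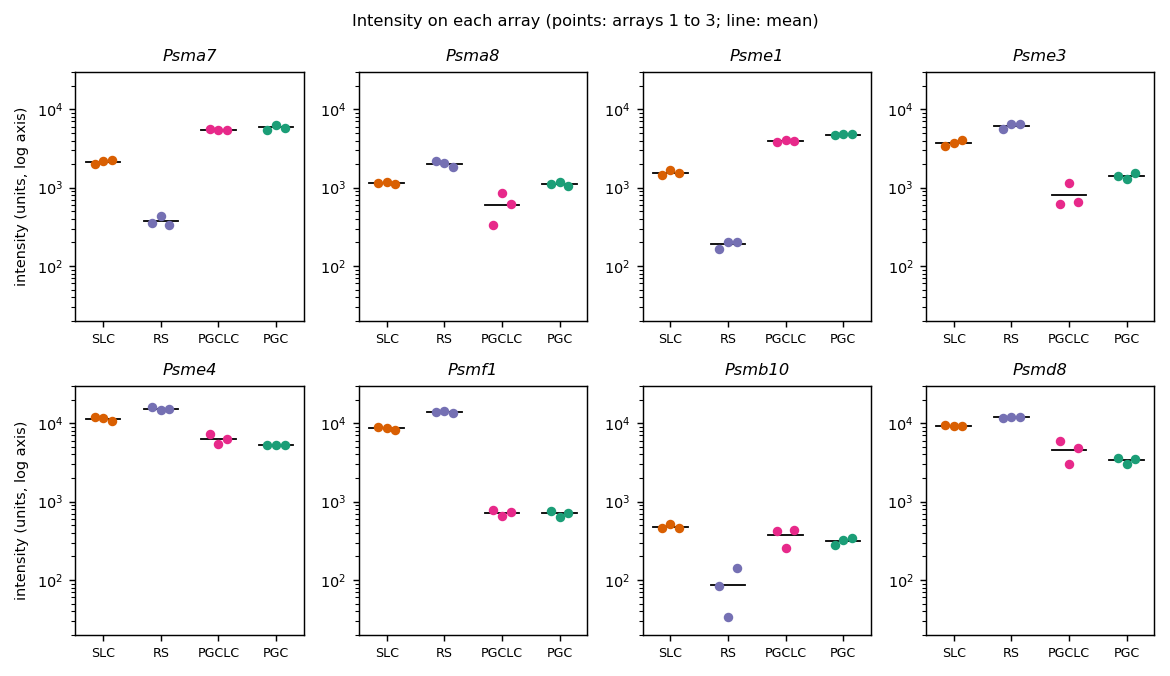
Intensity on each array (points, arrays 1 to 3 from left, log axis) with the group mean (line) for 8 proteasome genes in SLC, RS, PGCLC and PGC. The brightest probe set of each gene is shown. Psma7, Psme1 and Psmb10 are lowest in RS, with SLC above it, whereas Psma8, Psme3, Psme4, Psmf1 and Psmd8 are highest in RS.

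With the authors' scaling, the stage change in culture had the same sign as in the animal in 43 of the 44 genes and was smaller in 39. Neither count was taken over all genes or under another scaling. Centring each array on its median moved the RS against PGC median from -1.41 to -0.96, but that of SLC against PGCLC only from -0.86 to -0.83. After centring the culture change less the animal change was above 0 in 21 of the 46 tested symbols, against 33 with the authors' scaling. In SLC against PGCLC, 19 genes fell and 5 rose (43.2% and 11.4%), against 26.9% and 29.4% of all genes. Without the fold limit 32 were lower and 9 higher, against 38.4% and 36.9% of all genes. The median difference was -0.86, against -0.07 for all genes. All SLC arrays lay below all PGCLC arrays in 32 genes (72.7%), against 38.3% of all genes, and above them in 10 (22.7%), against 37.7%. The medians were -0.83 and -0.04 after centring and -0.95 and -0.02 after quantile normalization. The 19 that fell had all fallen in RS against PGC too, and 7 more fell in vivo without a call in culture. On the probe sets used, Psmc3, Psmd8, Psme3 and Psmf1 rose in both comparisons, which share no arrays. Over the 44 genes the in vitro and in vivo differences correlated with a Pearson r of 0.91 and a Spearman rho of 0.92, read from the same probe sets. Psmb10 was the gene whose sign differed, at 0.40 ± 0.41 in culture.

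Markers of other cells were read in SLC against PGCLC too, where 29.4% of all genes were called higher and 26.9% lower. The shares called higher were near that of all genes for fetal gonad somatic (37.5%), macrophage (25%) and immediate early and stress genes (25%). Testis somatic markers summed to 47500 to 48410 units in SLC, against 12140 to 15000 in PGCLC, with 5 of 12 called higher and 0 lower. Fetal gonad somatic markers summed to 27100 to 28740 units in SLC, against 3779 to 10520 in PGCLC, with 3 of 8 called higher and 1 lower. Endothelial and blood markers summed to 418.3 to 535.5 units in SLC, against 4432 to 17370 in PGCLC, with 4 of 6 called lower. Macrophage markers summed to 903.5 to 1091 units in SLC, against 539 to 1931 in PGCLC, with 1 of 4 called higher and 2 lower. Immediate early and stress genes summed to 43600 to 44800 units in SLC, against 22550 to 38400 in PGCLC, with 2 of 8 called higher. Meiotic spermatocyte markers summed to 6627 to 7318 units in SLC, against 2170 to 4684 in PGCLC, with 4 of 7 called higher and 0 lower. The Gapdh ratio was -0.56 to -0.43 in SLC, against -0.37 to -0.29 in PGCLC. That of Actb overlapped, at 0.33 to 0.60 in SLC and 0.37 to 0.63 in PGCLC. Their part in the result was not tested.

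All 4 core chaperones fell in culture as well, where 26.9% of all genes were called lower. Psmg1 fell most, at -2.04 ± 0.10 (SE, adjusted p = 4.8e-09). Psmg2, Psmg3 and Psmg4 had differences of -1.25 ± 0.17, -1.82 ± 0.18 and -1.81 ± 0.19. In the alpha ring Psma1, Psma2, Psma4, Psma5 and Psma7 fell (62.5%), Psma1 most at -1.43 ± 0.08. Psma8 rose by 1.03 ± 0.25 (SE, adjusted p = 0.003). Its PGCLC arrays spread over 335.5 to 856.7 units, and without PGCLC array 1 the difference was 0.65 and no call. In the beta ring Psmb1 and Psmb2 fell (28.6%, near the 26.9% of all genes), Psmb2 at -1.12 ± 0.11. Without PGCLC array 2 Psmb2 came to just under 2-fold and lost its call.

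Genes of the cap and the activators moved in both directions in culture. Over all genes 26.9% were called lower and 29.4% higher. Of the 6 ATPase genes 50% fell and 16.7% rose, and of the 3 activators 33.3% fell and 33.3% rose. Of the 11 other cap subunits 27.3% fell, near the share of all genes, and 9.09% rose. Psmc1, Psmc4 and Psmc6 fell, at -1.25, -1.05 and -1.24, and Psmc3 rose by 1.13 ± 0.09. The call of Psmc4 was lost without SLC array 1 (-0.96) and without PGCLC array 2 (-0.82). Psmd1, Psmd3 and Psmd14 fell, Psmd14 at -1.40 ± 0.10, and Psmd8 rose by 1.09 ± 0.18. Psmd5 fell at -1.54 ± 0.16. Psme3 rose by 2.27 ± 0.19 (SE, adjusted p = 4.5e-07) and Psmf1 by 3.60 ± 0.09 (SE, adjusted p = 7.7e-12). Psme1 fell at -1.34 ± 0.10 (SE, adjusted p = 1.1e-07). Psme4 was higher on all SLC arrays than on all PGCLC arrays, by 0.88 ± 0.09, under 2-fold.

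Whether the stage change differed between culture and animal was tested by the interaction, the SLC minus PGCLC difference less the RS minus PGC difference. In 11 of the 44 genes (25%) it was called higher, and in 0 lower, against 20.7% and 11.1% of all genes, so the share called higher was near that of all genes. The median was 0.36, against -0.05 for all genes. Centring each array on its median turned it to -0.06, against -0.46 for all genes, with 6 higher and 4 lower, and quantile normalization gave 0.44, against -0.13, with 8 and 0. Without the fold limit, 23 were higher and 4 lower, against 26.2% and 21.8% of all genes. At an unadjusted p under 0.05 in limma, 25 were higher and 4 lower. The 11 genes were Psme1, Psma7, Psmb10, Psma2, Psmb3, Psmd5, Psmb2, Psmg3, Psma1, Psmb1 and Psmd14. Psme1 had 3.30 ± 0.14 (SE, adjusted p = 1.6e-08) and Psma7 2.62 ± 0.15 (SE, adjusted p = 1.0e-07). Psmf1 and Psme4, which were higher in RS than in PGC, had values of -0.72 ± 0.13 and -0.65 ± 0.13, which passed the test below 2-fold, and after centring both were called lower, at -1.14 and -1.06. The genes called higher after centring were Psme1, Psma7, Psmb10, Psma2, Psmb3 and Psmd5. Psmg1 and Psmg2 had 0.45 ± 0.15 and 0.33 ± 0.24. The interaction was also called higher for 9 of 12 testis somatic markers, 7 of 8 fetal gonad somatic markers and 5 of 8 immediate early and stress genes, and lower for 1 of each list. It was called higher for 1 and lower for 2 of the 4 macrophage markers and of the 6 endothelial and blood markers. Of the 7 meiotic spermatocyte markers 0 were called. Their part in the result was not tested.

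Spermatid-like cells had more signal of several core genes than round spermatids. In SLC against RS, 7 of the 44 genes rose and 0 fell (15.9% and 0%), against 23.5% and 3.32% of all genes, so the share that rose was below that of all genes. Without the fold limit, 20 were higher and 14 lower, against 31.6% and 31.5% of all genes, and at an unadjusted p under 0.05 in limma 21 were higher and 16 lower. The median difference was 0.17, against -0.15 for all genes, with the authors' scaling. Centring each array on its median turned it to -0.47, against -0.79 for all genes, and 3 rose and 11 fell, whereas quantile normalization gave 0.09, against -0.33, with 5 and 0. Relative to all genes the difference was 0.32 with the authors' scaling and with centring, which cannot change it, and 0.41 after quantile normalization. This comparison shares the RS arrays with that of RS against PGC.

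Psme1 differed most, by 3.02 ± 0.10 (SE, adjusted p = 3.7e-10), with SLC values of 1461 to 1664 units, against RS values of 166.6 to 204.4 units. Psmb10 followed with 2.69 ± 0.41 (SE, adjusted p = 0.00017) and Psma7 with 2.52 ± 0.10 (SE, adjusted p = 2.6e-09). In all 3 genes every SLC array lay above every RS array. Psma2, Psmb3 and Psmg3 rose by 1.59 ± 0.10, 1.42 ± 0.10 and 1.22 ± 0.18, and Psma1 by 1.02 ± 0.08, close to the 2-fold limit. Without RS array 1 or 2 Psma1 stood at 0.98 or 0.99 and lost its call, and after quantile normalization it was at 0.93. Psme1, Psmb10 and Psma7 were the genes that were called higher also after centring on the median.

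Other members were lower in SLC than in RS without reaching 2-fold. Psma8 was at 1151, 1178 and 1118 units on the SLC arrays, against 2170, 2070 and 1846 on the RS arrays, a difference of -0.82 ± 0.25 (SE, adjusted p = 0.015). Psme3, Psmf1 and Psme4 differed by -0.73 ± 0.19, -0.69 ± 0.09 and -0.42 ± 0.09, each with all SLC arrays below all RS arrays. Psmb7 had the largest such difference, -0.95 ± 0.15 (SE, adjusted p = 0.00022), followed by Psma8. Psmc2, Psmc3 and Psmc5 of the ATPase ring lay between -0.52 and -0.36, while Psmc4 was at 0.64 ± 0.17. Psmd14 and Psmd5 were higher in SLC by 0.88 ± 0.10 and 0.80 ± 0.16, and Psmd3, Psmd6, Psmd10 and Psmg1 overlapped between the groups. All SLC arrays lay above all RS arrays in 22 of the 44 genes (50%), against 34.1% of all genes, and below them in 18 (40.9%), against 40.4%.

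Markers of other cells were read in SLC against RS as well, where 23.5% of all genes were called higher and 3.32% lower. The shares called higher were near that of all genes for macrophage markers (25%) and endothelial and blood markers (16.7%). Of the testis somatic markers 11 of 12 were called higher in SLC than in RS, and their summed intensity was 47500 to 48410 units in SLC, against 2706 to 3109 in RS. Of the fetal gonad somatic markers 7 of 8 were called higher, with sums of 27100 to 28740 units in SLC, against 725.4 to 854.9 in RS. Cyp11a1, the Leydig cell enzyme that starts steroid synthesis, was at 4305, 4002 and 4039 intensity units on the SLC arrays, against 4.01, 14.34 and 8.574 on the RS arrays, where it lay below the floor of 30.75. Immediate early and stress genes were called higher in 7 of 8, with sums of 43600 to 44800 units in SLC, against 4072 to 4467 in RS. Macrophage markers were called higher in 1 of 4 and endothelial and blood markers in 1 of 6, with sums of 903.5 to 1091 units in SLC, against 581.2 to 686.4 in RS, and of 418.3 to 535.5 in SLC, against 390.8 to 534 in RS. Spermatid markers summed to 128900 to 131400 units in SLC, against 168300 to 182300 in RS, and 0 of 9 were called higher and 1 lower. Meiotic spermatocyte markers summed to 6627 to 7318 units in SLC, against 11460 to 12250 in RS, with 0 of 7 called higher or lower. Without the fold limit 6 of the 7 were lower and 0 higher. The log2 ratio of the 3' to the 5' control probe set of Gapdh was -0.56 to -0.43 in SLC, against -0.01 to 0.20 in RS, and that of Actb was 0.33 to 0.60 in SLC, against 0.46 to 0.49 in RS. Their part in the result was not tested.

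**Figure D3:**
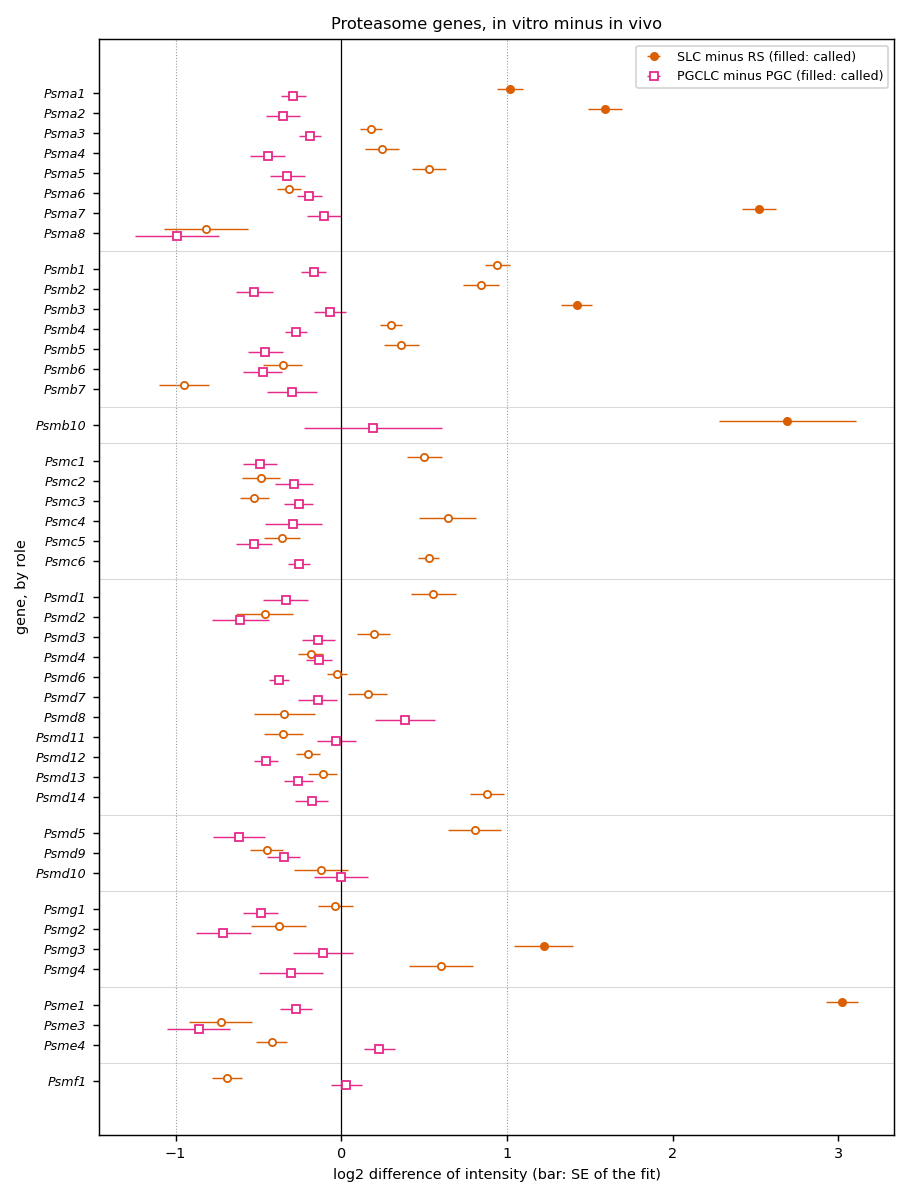
Log2 difference of each of the 44 proteasome genes (rows, grouped by role, SE of the fit as bars) in spermatid-like cells minus round spermatids (circles) and in PGCLC minus PGC (squares). Filled symbols passed the test with a change of at least 2-fold (dotted lines). In SLC the 7 called genes lie right of 1, led by Psme1, and in PGCLC most genes lie slightly left of 0 and none was called.

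In PGCLC against PGC 0 of the 44 proteasome genes rose or fell by the 2-fold rule, against 10.3% called higher and 1.60% called lower over all genes. Without the fold limit, 0 were higher and 22 lower (50%), against 16.7% and 13.5% of all genes, and at an unadjusted p under 0.05 in limma 1 was higher and 28 lower. All PGCLC arrays lay below all PGC arrays in 28 of 44 genes (63.6%), against 20.2% of all genes, and above them in 1, Psme4 (2.27%), against 20.1%. The median difference was -0.29, against 0.01 for all genes. Centring, which cannot change the gap to all genes, gave -0.51, against -0.22 for all genes, with 0 higher and 2 lower. Quantile normalization, which can, gave -0.21, against -0.05, with 0 and 1, so the median stayed below that of all genes.

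Psma8 had the largest difference, -0.99 ± 0.25 (SE, adjusted p = 0.015), just under 2-fold. Psme3 differed by -0.86 ± 0.19 (SE, adjusted p = 0.0092), Psmg2 by -0.71 ± 0.17, Psmd5 by -0.62 ± 0.16 and Psmd2 by -0.61 ± 0.17. In each of these genes PGCLC array 2 was the nearest to the PGC arrays. Without that array Psma8 stood at -1.29 and Psme3 at -1.14, and both were called lower. Psmc5 and Psmb2 differed by -0.53 ± 0.11 and -0.52 ± 0.11. Psma7, Psmb3, Psmd11, Psmd10 and Psmf1 lay between -0.10 and 0.03, and Psmd8 was at 0.39 ± 0.18. Pluripotency markers summed to 45260, 21760 and 38930 units on PGCLC arrays 1, 2 and 3, against 20660 to 21840 on the PGC arrays, with 2 of 6 called higher. All 8 immediate early and stress genes were called higher in PGCLC, with sums of 22550 to 38400 units, against 7215 to 8627 in PGC. Macrophage markers were called higher in 3 of 4, with sums of 539 to 1931 units in PGCLC, against 227.3 to 253 in PGC. Testis somatic markers were called higher in 5 of 12, with sums of 12140 to 15000 units in PGCLC, against 4669 to 5125 in PGC, and fetal gonad somatic markers in 1 of 8, with sums of 3779 to 10520 units in PGCLC, against 3789 to 4698 in PGC. Endothelial and blood markers summed to 4432 to 17370 units in PGCLC, against 13720 to 14730 in PGC, with 1 of 6 called higher and 1 lower. Meiotic markers were called lower in 4 of 7, with sums of 2170 to 4684 units in PGCLC, against 5309 to 6047 in PGC. Their part in the result was not tested.

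The order of the 4 group means was counted for the 44 genes only and not over all genes, so it cannot be called particular to them. PGC had the highest mean in 33 of the 44 genes, RS in 10, SLC in 1, which was Psmb10, and PGCLC in 0. RS had the lowest mean in 23, SLC in 11, PGCLC in 6 and PGC in 4. In 22 genes the means ran downward in the order PGC, PGCLC, SLC and RS. The 10 genes highest in RS were Psma6, Psma8, Psmc2, Psmc3, Psmd8, Psmd9, Psmd10, Psme3, Psme4 and Psmf1.

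Probe sets of the same gene did not always follow each other. Of the 44 genes, 21 had several probe sets over the filter, and all of them had the same sign in 13 genes for RS minus PGC, in 13 for SLC minus PGCLC, in 12 for SLC minus RS and in 18 for PGCLC minus PGC. Both probe sets of Psma7 were lower in RS than in PGC, at -3.98 and -4.04, and both of Psmb3, at -2.47 and -3.07. Those of Psmc6 lay at -2.02 for the one used and at -5.59 and -4.92 for the others, past the -4.64 of Psme1. In SLC minus RS they lay at 0.53, 2.91 and 2.22, and in the interaction at 0.78, 3.60 and 2.63. On the dimmest of them the RS arrays had 7.81 to 20.87 units, below the floor of 30.75. The 3 brightest probe sets of Psme4 were higher, by 1.52, 2.08 and 2.44, while the 2 dim ones lay at -1.45 and -1.43. For Psmf1 the brightest was 4.32 higher and the other 3 lay between -1.21 and -0.17. For Psme3 the second probe set lay at -1.54, and for Psmd11 6 probe sets ran from -3.42 to 4.07. With the mean of all probe sets of a gene, Psmf1 was at 0.62, Psme4 at 0.63 and Psme3 at 0.30, and none of them was called in RS against PGC. Psmf1, at 0.64, and Psme3, at 0.36, also lost their calls in SLC against PGCLC, and Psma1, at 0.21, its call in SLC against RS. Psme1, Psma8, Psmb10, Psmc3 and Psmd8 have a single probe set each.

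**Figure D4:**
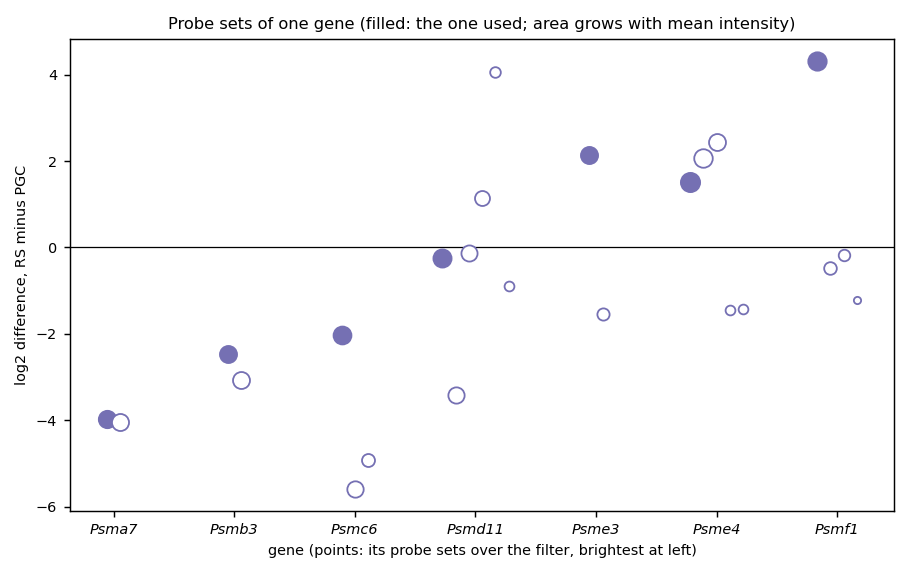
Log2 difference, round spermatids minus PGC, of each probe set over the filter for 7 proteasome genes (the brightest at left, filled where it stands for the gene, area growing with mean intensity). The probe sets of Psma7, Psmb3 and Psmc6 all lie below 0, whereas those of Psmd11, Psme3, Psme4 and Psmf1 lie on both sides of 0.

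The symbols that only share the letters differed from each other. Psmc3ip, a partner of the meiotic recombinases, was at 3452, 3078 and 3394 intensity units on the SLC arrays, 5715, 6145 and 6127 on the RS arrays, 1106, 849.3 and 881.7 on the PGCLC arrays and 1134, 1133 and 1141 on the PGC arrays. It rose by 2.40 ± 0.10 (SE, adjusted p = 4.1e-10) in RS against PGC and by 1.81 ± 0.10 in SLC against PGCLC. Psme3ip1 was at 1360, 1279 and 1290 intensity units on the SLC arrays, 1698, 2081 and 2087 on the RS arrays, 1396, 2260 and 1760 on the PGCLC arrays and 2629, 2498 and 2560 on the PGC arrays. It was lower in RS than in PGC by -0.40 ± 0.15, in SLC than in PGCLC by -0.44 ± 0.15 and in SLC than in RS by -0.57 ± 0.15, with no call in any comparison.

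Genes that regulate or surround the proteasome were read from 5 lists. Over all genes, 31.5% were called higher and 37.2% lower in RS against PGC, 23.5% and 3.32% in SLC against RS, and 29.4% and 26.9% in SLC against PGCLC. Of the 7 measured regulators of subunit transcription, 5 fell (71.4%) and 1 rose (14.3%) in RS against PGC, with a median of -1.96, against -0.22 for all genes. In SLC against RS 5 rose (71.4%), with a median of 1.52, against -0.15 for all genes. Nfe2l1, the factor that restores proteasome synthesis in mammalian cells, was at 1979, 1968 and 1773 intensity units on the SLC arrays, 750.1, 618.5 and 540.6 on the RS arrays, 1807, 2094 and 2101 on the PGCLC arrays and 2541, 2111 and 2745 on the PGC arrays. RS was lowest without overlap, at -1.96 ± 0.14 (SE, adjusted p = 4.3e-08) from PGC, and SLC lay above it by 1.59 ± 0.14. Mafg, a partner of these factors, was at 604.4, 681.7 and 813.2 intensity units on the SLC arrays, 208.9, 143.3 and 149 on the RS arrays, 1418, 1863 and 1676 on the PGCLC arrays and 2056, 2016 and 1926 on the PGC arrays. Bach1, a repressor at the same DNA element, was at 1063, 1199 and 1237 intensity units on the SLC arrays, 84.72, 66.42 and 88.12 on the RS arrays, 2361, 1290 and 1932 on the PGCLC arrays and 781.5, 833.3 and 907.9 on the PGC arrays. Both were lowest in RS. Ngly1, the enzyme that activates Nfe2l1 by removing its sugars, went the other way, at 9598, 9551 and 9342 intensity units on the SLC arrays, 14280, 13890 and 14140 on the RS arrays, 430.7, 573.5 and 454 on the PGCLC arrays and 504.7, 532.8 and 521.1 on the PGC arrays. Its SLC and RS arrays lay between 9342 and 14280 units, and the others between 430.7 and 573.5. Nfe2l1 and, below, Pomp and Psmb9 were chosen after their values were seen.

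Of the 15 measured proteasome-associated genes, 7 fell (46.7%) and 2 rose (13.3%) in RS against PGC (median -0.66), and 3 rose (20%) in SLC against RS (median 0.52). The share that fell in RS and the share that rose in SLC were near the 37.2% and 23.5% of all genes. Pomp, the core maturation factor, was at 2484, 2495 and 2300 intensity units on the SLC arrays, 1081, 1463 and 1469 on the RS arrays, 5552, 5145 and 5225 on the PGCLC arrays and 5764, 5871 and 5816 on the PGC arrays. RS was lowest, at -2.14 ± 0.11 from PGC. Ubqln2, which carries ubiquitylated proteins to the proteasome, was at 1407, 1458 and 1343 intensity units on the SLC arrays, 140.1, 84.64 and 97.5 on the RS arrays, 4429, 3118 and 3798 on the PGCLC arrays and 2563, 2791 and 2313 on the PGC arrays. RS was lowest here too, and its interaction was 3.18 ± 0.25 (SE, adjusted p = 2.0e-06). Psmb8, the immunoproteasome subunit, was at 327.7, 337.2 and 371 intensity units on the SLC arrays, 70.08, 9.825 and 8.189 on the RS arrays, 136.8, 3.373 and 88.65 on the PGCLC arrays and 3.765, 29.3 and 4.993 on the PGC arrays. All SLC arrays lay above all others, and most RS and PGC arrays lay below the floor, so no fold is given. Psmb9, another immunoproteasome subunit, was at 113 to 136.6 units in SLC, above RS at 72.09 to 97.53 and PGC at 20.16 to 88.83. Its SLC arrays overlapped with PGCLC, at 66.46 to 145.8 units.

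Among the 6 measured genes of MHC class I peptide supply, which use peptides the proteasome makes, 4 rose (66.7%) in SLC against RS (median 1.73), against 23.5% of all genes. B2m, the light chain of MHC class I, was at 12160, 11800 and 11970 intensity units on the SLC arrays, 360.4, 425.3 and 437.6 on the RS arrays, 3356, 1097 and 2266 on the PGCLC arrays and 403.4, 464.4 and 392 on the PGC arrays. SLC was highest and PGCLC above PGC, and RS and PGC overlapped. Tap1, a peptide transporter, was at 150.3, 170.3 and 155.8 intensity units on the SLC arrays, 68.45, 50.69 and 32.36 on the RS arrays, 326.1, 49.97 and 208.8 on the PGCLC arrays and 10, 25.9 and 9.284 on the PGC arrays. SLC and PGCLC arrays 1 and 3 were the highest. Of 6 measured genes of ubiquitin supply and unfolding, 3 fell (50%) and 1 rose (16.7%) in RS against PGC (median -0.84), against 37.2% and 31.5% of all genes. In SLC against RS 1 rose (16.7%), against 23.5% of all genes. Uba6, an enzyme that starts ubiquitin transfer, was at 671.3, 666.9 and 701.5 intensity units on the SLC arrays, 342.8, 203.1 and 258.2 on the RS arrays, 2992, 3451 and 2998 on the PGCLC arrays and 3075, 3424 and 3751 on the PGC arrays. RS was lowest, and the difference from PGC was -3.70 ± 0.16.

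The testis ubiquitin genes moved in both directions. Of 13 measured, 7 rose (53.8%) and 5 fell (38.5%) in RS against PGC (median 1.11), against 31.5% and 37.2% of all genes. In SLC against PGCLC 7 rose (53.8%) and 4 fell (30.8%), with a median of 1.18, against 29.4% and 26.9% of all genes. The shares that fell were near those of all genes in both. Klhl10, a substrate adaptor of a spermatid ubiquitin ligase, was at 8777, 9225 and 9461 intensity units on the SLC arrays, 14550, 14390 and 14490 on the RS arrays, 38.05, 12.91 and 35.54 on the PGCLC arrays and 8.332, 16.82 and 1.349 on the PGC arrays. Rnf151, a ring finger protein of spermatids, was at 8204, 8499 and 8748 intensity units on the SLC arrays, 12650, 13990 and 13980 on the RS arrays, 34.78, 8.049 and 28.68 on the PGCLC arrays and 11.07, 51.02 and 10.36 on the PGC arrays. Both were bright in SLC and RS and near or below the floor in PGCLC and PGC, with SLC below RS. Marchf10, a ubiquitin ligase of spermatids, was at 1534, 1104 and 1055 intensity units on the SLC arrays, 3492, 3367 and 3528 on the RS arrays, 86.64, 129.8 and 128.6 on the PGCLC arrays and 11.7, 83.75 and 32.45 on the PGC arrays. It fell in SLC against RS, with -1.51 ± 0.34 (SE, adjusted p = 0.0022).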

How the data were processed

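Total RNA from 12 samples was hybridised to Affymetrix 3' arrays. The deposited values are linear intensities, 1 per probe set, which the authors made with MAS5 per the submitters' processing notes, with no version given. Their trimmed mean was 500 on each array.

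Groups were taken from the sample titles. Control probe sets (64), probe sets with several symbols (932) and those with none (9160) were left out. Values under the 25th percentile of the table (30.75 units) were set to it, then log2 was taken. Probe sets above 92.03 units on at least 3 arrays were kept, 1 per gene by the highest mean, giving 14197 genes. All 12 arrays entered a single limma 3.58.1 fit in R 4.3.3, using lmFit on 4 group means and eBayes with its trend option, and the script was tested on simulated data. P values were adjusted by Benjamini-Hochberg over all genes, and a call needed an adjusted p under 0.05 and a 2-fold change.

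Every matched symbol could be named. Values on every array were given for tissue and inducible forms, activators and Psmd10, for the 3 largest called rises and falls of each contrast, for the largest change in each role group, and for the 2 largest changes in the gene lists. Others were named after their values were seen. The members and lists were chosen with earlier results of these data known. Alternatives were the floor, a pseudocount, the filter, centring, quantile normalization, the mean of probe sets, pairwise fits, the trend, array weights, a replicate block, the fold limit and each array left out. The number of arrays limits the precision.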

Additional observations from a re-analysis of the deposited data

Results flagged for a closer look

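The change between the stages differed between culture and animal for 11 of 44 proteasome genes (25%), near the 20.7% of all genes called higher in the same test. The value is the SLC minus PGCLC difference less the RS minus PGC difference on the log2 scale, tested with limma over all genes. Among core subunits it was 2.62 for Psma7, 1.94 for Psma2 and 1.31 for Psma1 in the alpha ring, and 1.49 for Psmb3, 1.37 for Psmb2 and 1.11 for Psmb1 in the beta ring. It was 2.50 for the inducible subunit Psmb10 and 3.30 for the activator subunit Psme1. For the cap deubiquitinase Psmd14 it was 1.06, for the cap chaperone Psmd5 it was 1.42, and for the core chaperone Psmg3 it was 1.33. All are positive, and in these genes RS had the lowest mean. Centring each array on its median left 6 of them called. In the same test 9 of 12 testis somatic markers, 7 of 8 fetal gonad somatic markers and 5 of 8 immediate early and stress genes were called higher. Their part in the result was not tested. The 4 groups of 3 arrays were too small for a test of single outlying arrays.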

How the results depend on the processing

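Counts here cover all 46 tested symbols, with Psmc3ip and Psme3ip1. Of 238 recomputed counts of called genes, 216 stayed within 1.5 times. Centring each array on its median gave 3 higher and 13 lower for SLC minus RS, 2 lower for PGCLC minus PGC, and 6 higher and 5 lower for the interaction. Quantile normalization gave 1 lower for PGCLC minus PGC, the mean of all probe sets gave 3 higher for RS minus PGC, and array weights gave 1 lower for SLC minus RS and 1 for PGCLC minus PGC. With no minimum fold the counts were 20 higher and 16 lower for SLC minus RS, 23 lower for PGCLC minus PGC, 10 higher for RS minus PGC, 10 higher and 33 lower for SLC minus PGCLC, and 23 higher and 5 lower for the interaction. Leaving out 1 array at a time gave 6 to 7 higher and 0 to 1 lower for SLC minus RS, 0 to 2 lower for PGCLC minus PGC, 5 to 6 higher and 17 to 20 lower for SLC minus PGCLC, and 10 to 14 higher and 0 to 1 lower for the interaction. The RS minus PGC counts stayed at 6 and 26. The arrays behind lower calls were SLC array 1, PGCLC arrays 2 and 3 and PGC array 3, of which leaving out PGCLC array 2 gave the 2 lower calls for PGCLC minus PGC.

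Over all genes, the share of calls that were higher was 87.6% for SLC minus RS, against 28.2% after centring and 54.9% after quantile normalization. It was 86.5% for PGCLC minus PGC, against 61.8% and 73.4%, and 65.1% for the interaction, against 36.8% and 54.7%. A fit of only the PGCLC and PGC arrays called 168 genes higher and 7 lower over all genes, against 1458 and 227. Single values were recomputed only for the Psm symbols picked for values on every array, many for their large changes, 120 values in all. The other tested symbols entered only the counts, so the stability of their single values was not tested. Of 2856 recomputed single values, 2748 kept their side of the threshold. Another 31 fell short of it, 77 newly passed it and 0 called values changed sign. With the replicate number as a replicate block, the SLC minus RS counts were again 7 and 0, and no call of a single value changed. Same-numbered arrays had correlations of their deviations between -0.017 and 0.133, those of different numbers lay between -0.106 and 0.052, and not every array correlated best with its own number. The highest were 0.133 for SLC and RS arrays 1 and 0.073 for SLC and RS arrays 3. With 3 arrays in a group these values cannot settle whether the numbers pair the arrays. The causes were not tested. Without detection calls, the lowest signals, such as Psmb10 and Psmg3 in RS, have no background limit.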
